A study of Apis mellifera with 12 samples.

Results

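The genes described here are 62 of the 12319 genes in a count table of honey bee (Apis mellifera) worker antennae whose level climbed by steps, lowest in newly emerged workers, higher in nurses and higher again in foragers and in defenders. All carry an identifier that starts with LOC, the form that NCBI gives to a gene with no assigned symbol, and none is listed in the deposited tables of splice events. The count of each gene was scaled by its library total to CPM, the usual depth-scaled unit of read counts, and the group level was the mean of log2(CPM + 0.5). A gene was taken when it averaged at least 5 CPM in foragers, was at least 0.7 higher on the log2 scale in nurses than in newly emerged workers, and was at least 0.5 higher than in nurses in foragers and also in defenders. Of 11185 LOC genes outside the splice tables, 7600 reached the floor in foragers, and 62 of these (0.816%) met every step. The steps themselves are thus what chose the genes, and they are given below as a description with no test. The data are 12 libraries of antennal RNA, 3 each of defenders, foragers, nurses and newly emerged workers. Defenders are named as such in the labels, with no word on what they did, and are grouped here with foragers as outside workers only by the usual meaning of the task; foragers collect food outside, nurses tend brood, and newly emerged workers have just left their cells. The sources used here give no strain, age, colony or number of bees per library, no genetic or drug treatment is named, and task cannot be told apart from age. The labels do not say that the 3 libraries of a group came from separate bees or colonies, so p-values reflect only how far these 12 libraries vary, which may be technical. The 3 replicates per group limit the precision of every mean.

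Worker honey bees change tasks as they age, from work inside the nest to foraging and guarding outside it, and the antenna is the organ with which they smell, taste and touch throughout. Antennal RNA comes from olfactory neurons, their support cells, epidermis that lays down cuticle, hemocytes and muscle at the base. Long noncoding RNAs (lncRNAs) are transcripts that encode no long protein, many of which are spliced and polyadenylated like messenger RNAs, and their levels are often low and specific to a cell type or state. The gene list of NCBI RefSeq for the Amel_HAv3.1 assembly, which matched all 62 identifiers, gives a biotype for each but no product name, so no function is stated for a LOC gene here. It lists 40 of the 62 as protein-coding and 22 as lncRNA.

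Library totals ran from 66708813 to 119703929 counts. The odorant binding protein genes Obp1 and Obp2 and the odorant co-receptor gene Or2 were present in every library, Obp1 at 17249, 16605 and 18346 CPM in defenders, 17382, 23798 and 17084 CPM in foragers, 17761, 17993 and 18458 CPM in nurses and 9210.4, 9842 and 11087 CPM in newly emerged workers. The summed CPM of 7 olfactory markers ran from 33865 to 37339 in defenders, 35524 to 48369 in foragers, 36314 to 37995 in nurses and 18083 to 21741 in newly emerged workers. For the 9 head gland markers the sums were 669.8 to 844 in defenders, 778 to 939 in foragers, 644 to 2764 in nurses and 111 to 119.7 in newly emerged workers. For 7 muscle markers they were 1275 to 1698 in defenders, 1116 to 1451 in foragers, 1319.7 to 2039.6 in nurses and 2675 to 3053 in newly emerged workers, and for the hemocyte marker PPO 10.3 to 12.2 in defenders, 9.24 to 9.99 in foragers, 26.2 to 48.6 in nurses and 22.0 to 24.7 in newly emerged workers. Of 5 fat body markers 4 were found by symbol, with sums of 17.8 to 41.3 in defenders, 11.6 to 17.4 in foragers, 42.0 to 222 in nurses and 34.5 to 48.8 in newly emerged workers and Hex70c near 0 CPM in all libraries, and of 4 photoreceptor markers 3 were found, with sums of 5.95 to 9.21 in defenders, 1.95 to 7.72 in foragers, 5.81 to 46.6 in nurses and 7.37 to 14.8 in newly emerged workers and Lop2 near 0 CPM in all libraries. The olfactory and gland sums were higher in nurses than in newly emerged workers, as the 62 genes were, and the muscle sums were lower. The olfactory sum is mostly Obp1 and Obp2, and the list did not move as one: Or2 was at 321, 392 and 385 CPM in defenders, 198, 246 and 152 CPM in foragers, 237, 183 and 100.1 CPM in nurses and 329, 344 and 311 CPM in newly emerged workers, lower in nurses than in newly emerged workers. Within the gland list, Hbg3 and Mrjp9 themselves met the steps of the rule, and they made up most of the sums in foragers and defenders. The gland list did not move as one either. Mrjp1 to Mrjp5 and Mrjp7 had lower means in defenders and foragers than in nurses. Mrjp1 averaged 31.7 CPM in defenders, 16.2 in foragers and 531 in nurses, and Mrjp3 4.91, 2.24 and 273 CPM. The part of cell makeup in the levels below was not tested, and in such bulk samples a change in the number of cells of a type and a change in RNA per cell cannot be told apart.

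The summed level of the 62 genes was higher in workers of the outside tasks, which choosing them on these steps favours. Their summed level was 8814, 10564 and 10741 CPM in defender libraries 1 to 3, 10497, 13484 and 12358 CPM in forager libraries, 5689, 4345 and 5571 CPM in nurse libraries, and 1623, 1694 and 1582 CPM in newly emerged libraries. The sums of the 4 groups did not overlap except those of defenders and foragers, an order that the rule favours. A few genes weigh heavily on the sums. In forager library 2, LOC413408, LOC724114 and LOC412768 were at 2699.6, 2663 and 2604 of the 13484 CPM. The median difference over the 62 was 1.44 on the log2 scale in nurses over newly emerged workers (range 0.71 to 4.13), 0.96 in foragers over nurses (0.51 to 3.45) and 0.91 in defenders over nurses (0.53 to 3.39). Mean levels in defenders were 2.62 to 75.7 times those in newly emerged workers (median 5.95), and in foragers 2.45 to 70.5 times (median 6.50). No member was without counts in any library, and the lowest single count was 4.

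In 59 of the 62 genes all 3 nurse libraries lay above all 3 newly emerged libraries, in 46 all 3 defender libraries lay above all 3 nurse libraries, and in 48 all 3 forager libraries did. Over the 11271 genes that passed edgeR's filter on low counts, as all 62 did, the same order held for 23.4%, 20.5% and 10.1%. The whole staircase ran without any overlap in 40 of the 62, against 1.92% of all tested genes. Since the rule used these contrasts, the counts describe the members' spread and are no test of it. The other 22 genes met the rule on group means while at least 1 library of a group reached into the next. Nurse library 2 was the lowest of the nurse libraries for 33 of the 62 genes, nurse library 3 for 20 and nurse library 1 for 9.

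**Figure D1:**
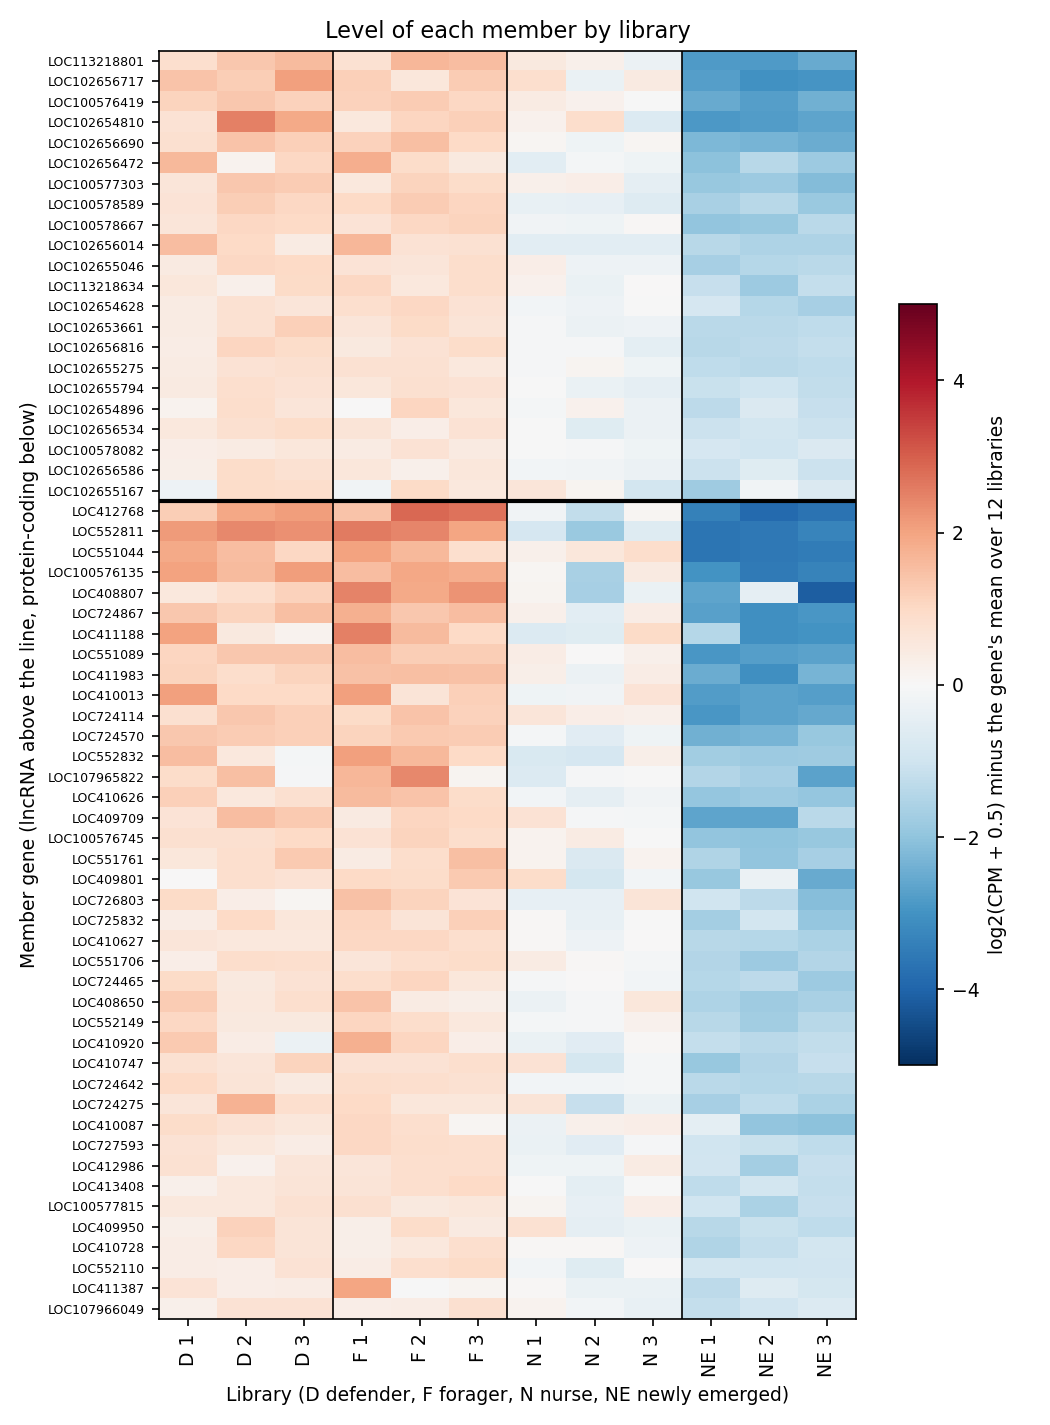
Level of each of the 62 genes (rows; 22 lncRNA genes above the black line and 40 protein-coding genes below it) in the 12 libraries (columns), as log2(CPM + 0.5) minus the gene's mean over all libraries, red above and blue below that mean. Newly emerged libraries are blue nearly throughout, nurse libraries pale, and defender and forager libraries red; LOC408807 and LOC409801 are pale in newly emerged library 2.

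Among protein-coding members, 3 averaged above 1000 CPM in foragers. LOC413408 was at 1795, 2145 and 2324 CPM in defender libraries 1 to 3, 2329, 2699.6 and 2932 CPM in forager libraries, 1451, 1059 and 1463 CPM in nurse libraries and 623, 784 and 659 CPM in newly emerged libraries. The defender libraries lay between the nurse and forager libraries for this gene without overlap on either side, and the newly emerged libraries lay lowest. LOC724114 was at 1743, 2524 and 2296 CPM in defender libraries 1 to 3, 1945, 2663 and 2221 CPM in forager libraries, 1506, 1256 and 1189 CPM in nurse libraries and 133, 156 and 166 CPM in newly emerged libraries. Most of its difference between foragers and newly emerged workers lay in the first step, 3.11 of 3.90 log2 units, and defender and forager libraries overlapped. LOC412768 was at 834, 1337 and 1496 CPM in defender libraries 1 to 3, 949.5, 2604 and 2286 CPM in forager libraries, 315, 149 and 373 CPM in nurse libraries and 33.0, 23.4 and 26.4 CPM in newly emerged libraries. Its forager library 1 was well below the other two and near the defender libraries, and the gene overlaps LOC409602 and LOC102655890 in RefSeq, so that reads could be split between them. CPM is not scaled to transcript length, so these levels do not rank the genes by number of transcripts.

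A second tier of protein-coding members lay between 100 and 1000 CPM in foragers, and 12 of the 15 members at 100 CPM or more are described by value here. LOC411983 was at 553, 470.1 and 563 CPM in defender libraries 1 to 3, 719, 732 and 704 CPM in forager libraries, 316, 207 and 329 CPM in nurse libraries and 46.1, 30.0 and 50.6 CPM in newly emerged libraries. All forager libraries lay above all defender libraries, which lay above all nurse libraries. LOC552811 was at 391, 473 and 436 CPM in defender libraries 1 to 3, 539.8, 488 and 347 CPM in forager libraries, 49.9, 23.9 and 56.8 CPM in nurse libraries and 6.64, 7.09 and 8.51 CPM in newly emerged libraries, with the largest step over nurses of all members in foragers (3.45) and in defenders (3.39). Its defender and forager libraries overlapped and stood clear of the nurse libraries. LOC724867 averaged 261 ± 34.5 CPM in defenders, 308 ± 48.6 in foragers, 109 ± 33.4 in nurses and 13.5 ± 1.63 in newly emerged workers (SD, n = 3 each). The gene that overlaps it, LOC551938, also stepped upward but less, by 1.04, 0.69 and 0.39 on the log2 scale in nurses over newly emerged workers, foragers over nurses and defenders over nurses, against 2.93, 1.53 and 1.30 for LOC724867. LOC552110 averaged 559.7 ± 87.4 CPM in defenders, 673 ± 141 in foragers, 344 ± 73.7 in nurses and 207 ± 5.55 in newly emerged workers, with the smallest first step of all 62 (0.71).

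The other genes of this tier also had their lowest levels in newly emerged workers. LOC551761 averaged 363 ± 94.7 CPM in defenders, 380.4 ± 150.5 in foragers, 181 ± 58.2 in nurses and 58.2 ± 9.13 in newly emerged workers (SD, n = 3 each). LOC552149 averaged 176 ± 40.9 CPM in defenders, 196 ± 36.2 in foragers, 109.7 ± 13.9 in nurses and 38.2 ± 5.10 in newly emerged workers. LOC409709 averaged 244 ± 70.7 CPM in defenders, 190.5 ± 41.2 in foragers, 125 ± 44.2 in nurses and 24.7 ± 14.0 in newly emerged workers. For LOC409709 nurse library 1, at 176 CPM, lay above forager library 1 and defender library 1. LOC410087 was at 303, 267 and 236 CPM in defender libraries 1 to 3, 329.7, 285 and 171 CPM in forager libraries, 131, 193 and 205 CPM in nurse libraries and 116, 41.0 and 38.8 CPM in newly emerged libraries. Its newly emerged library 1 stood little below nurse library 1, and forager library 3 fell among the nurse libraries. LOC107965822, which lies on an unplaced scaffold, was at 213, 323 and 111 CPM in defender libraries 1 to 3, 363, 599 and 124 CPM in forager libraries, 71.6, 109.8 and 112 CPM in nurse libraries and 41.4, 35.2 and 17.3 CPM in newly emerged libraries. Defender library 3 lay within the nurse range and forager library 3 just above it, so the outside step of this gene rests on libraries 1 and 2.

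**Figure D2:**
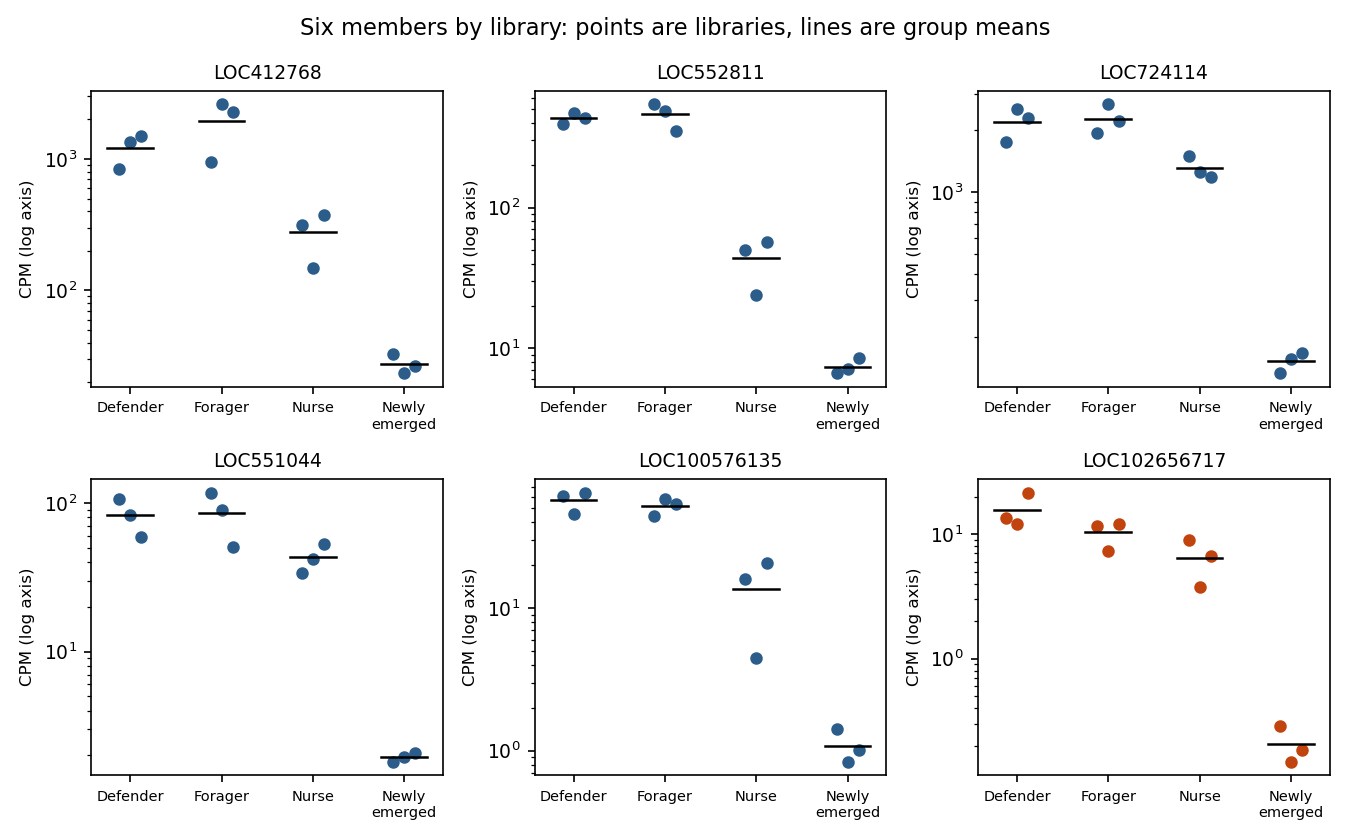
CPM by library (points; log axis) and group mean (lines) for 6 members, protein-coding in blue and lncRNA in orange, with groups from defenders on the left to newly emerged workers on the right. In all 6 the newly emerged libraries lie lowest with no overlap, and the defender and forager libraries overlap each other.

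Members with a wide span between foragers and newly emerged workers differed in their starting level. Of the 10 widest, LOC412768, LOC411983 and LOC724867 averaged 27.6, 42.2 and 13.5 CPM in newly emerged workers, above the median of 3.14 CPM over all 62, whereas LOC551044, LOC100576135, LOC551089 and LOC113218801 averaged below 2 CPM. LOC551044 was at 107, 83.5 and 58.9 CPM in defender libraries 1 to 3, 117, 89.4 and 50.6 CPM in forager libraries, 33.8, 42.3 and 53.1 CPM in nurse libraries and 1.82, 1.93 and 2.08 CPM in newly emerged libraries, a first step of 4.13 that was the largest of all members on the log2(CPM + 0.5) scale. It was uneven in defenders and foragers, with forager library 3 below nurse library 3. The added 0.5 compresses steps that start near 0 CPM. As a ratio of means, the first step was 22.2 for LOC551044, 31.2 for LOC102656717 and 26.2 for LOC102656690. Ratios of forager to newly emerged means were 68.3 for LOC102656690 and 50.0 for LOC102656717, neither of them among the 10 widest. LOC100576135 was at 60.6, 45.3 and 64.3 CPM in defender libraries 1 to 3, 44.4, 58.5 and 53.4 CPM in forager libraries, 16.0, 4.45 and 20.7 CPM in nurse libraries and 1.41, 0.839 and 1.01 CPM in newly emerged libraries, and its means in defenders and foragers were 52.3 and 48.0 times that in newly emerged workers. Nurse library 2 was far below the other nurse libraries. LOC551089 averaged 37.0 ± 3.99 CPM in defenders, 39.3 ± 5.12 in foragers, 17.8 ± 2.29 in nurses and 1.78 ± 0.181 in newly emerged workers (SD, n = 3 each), with little spread in any group. LOC408807 was at 20.7, 25.9 and 32.2 CPM in defender libraries 1 to 3, 82.0, 54.9 and 69.8 CPM in forager libraries, 15.8, 4.17 and 11.2 CPM in nurse libraries and 1.92, 10.4 and 0.357 CPM in newly emerged libraries. Newly emerged library 2 was within the range of the nurse libraries for LOC408807, while all forager libraries were above all defender libraries. Of the 62 genes, 9 averaged below 1 CPM in newly emerged workers, 6 of them lncRNA genes.

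The 22 lncRNA members stood at lower CPM than the protein-coding ones, on a scale that does not correct for length, and had a smaller median first step. Their mean level ran from 5.10 to 60.2 CPM in defenders (median 13.8), 5.47 to 51.0 in foragers (median 12.3), 1.49 to 29.4 in nurses (median 5.97) and 0.0955 to 14.2 in newly emerged workers (median 1.95). Their median steps were 1.21 in nurses over newly emerged workers, 0.90 in foragers over nurses and 0.99 in defenders over nurses, beside 1.56, 1.02 and 0.81 for the 40 protein-coding members. LOC102656717 was at 13.5, 11.96 and 21.5 CPM in defender libraries 1 to 3, 11.7, 7.27 and 12.04 CPM in forager libraries, 8.88, 3.74 and 6.72 CPM in nurse libraries and 0.286, 0.150 and 0.184 CPM in newly emerged libraries. LOC102656690 was at 4.74, 7.59 and 6.36 CPM in defender libraries 1 to 3, 6.12, 7.93 and 5.50 CPM in forager libraries, 2.68, 2.10 and 2.73 CPM in nurse libraries and 0.138, 0.105 and 0.0433 CPM in newly emerged libraries. Both were close to absent in newly emerged antennae, and their RefSeq bounds overlap, so reads from one could be counted for the other. LOC113218801 was at 17.0, 24.6 and 29.4 CPM in defender libraries 1 to 3, 16.0, 31.0 and 28.2 CPM in forager libraries, 13.3, 11.3 and 7.56 CPM in nurse libraries and 0.888, 0.884 and 1.21 CPM in newly emerged libraries, and its newly emerged libraries were clear of all others. LOC102654810 was at 11.9, 42.7 and 27.5 CPM in defender libraries 1 to 3, 10.5, 15.6 and 16.8 CPM in forager libraries, 8.31, 13.7 and 4.24 CPM in nurse libraries and 0.553, 0.600 and 0.725 CPM in newly emerged libraries. Its defender libraries were far apart, with library 1 within the range of the nurse libraries.

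LncRNA genes were a larger share of the members than of the genes they were drawn from. They made up 22 of 62 members (35.5%), beside 368 of the 7600 LOC genes at 5 CPM or more in foragers (4.84%). Seen from the other side, 5.98% of those lncRNA genes met every step and 0.554% of the 7225 protein-coding ones did. On the first step, 30.2% of lncRNA genes (111) were higher in nurses than in newly emerged workers by 0.7 or more, against 4.50% of protein-coding genes (325). Lower by as much in nurses were 3.26% of lncRNA genes and 9.99% of protein-coding genes. The median step in nurses over newly emerged workers was 0.39 over all 368 lncRNA genes and -0.05 over the protein-coding genes, whereas the medians in foragers over nurses were 0.08 and 0.02, and those in defenders over nurses -0.01 and 0.01. The floor was set in foragers, which favours genes that are high there, and lncRNA genes lie nearer to it (median 11.6 against 36.7 CPM). With the floor on the mean of all 12 libraries instead, a choice made after seeing the data, 17 of 54 genes that met the steps were lncRNA (31.5%), beside 4.49% of the 7637 genes above that floor, and 27.4% of lncRNA and 4.24% of protein-coding genes passed the first step. In the opposite direction, 69 LOC genes with at least 5 CPM in newly emerged workers were lower by the same sizes at each step, and 3 of them (4.35%) were lncRNA genes, beside 3.69% of the 7540 genes at that floor. These shares are descriptions with no test, since the members were chosen on the steps.

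**Figure D3:**
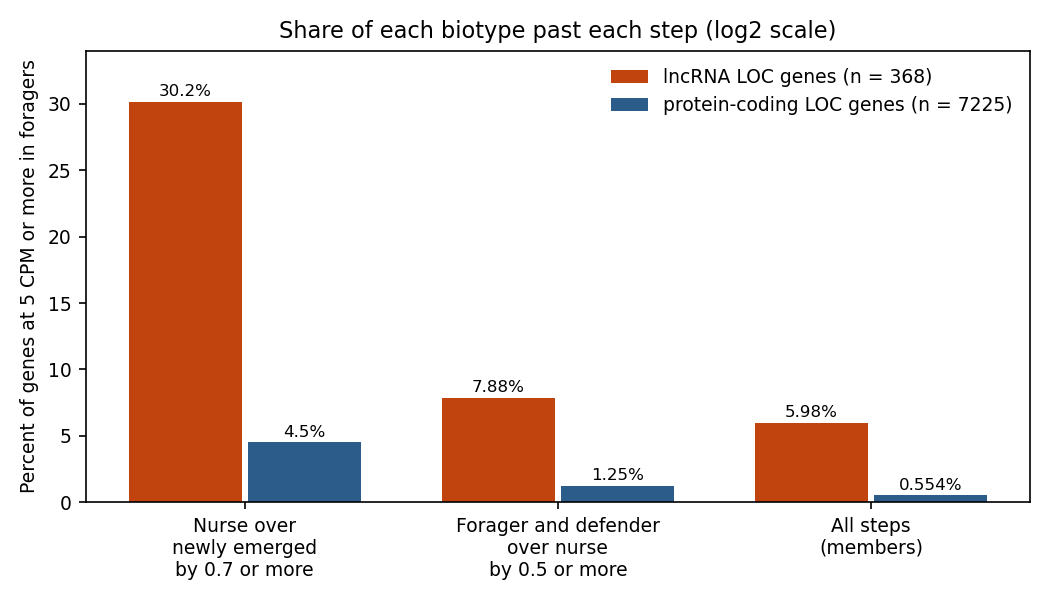
Percent of the 368 lncRNA LOC genes (orange) and the 7225 protein-coding LOC genes (blue) at 5 CPM or more in foragers that passed the step of nurses over newly emerged workers, the steps of foragers and defenders over nurses, and all of them. The lncRNA bar is the higher in each pair, at 30.2% against 4.50%, 7.88% against 1.25% and 5.98% against 0.554%.

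Many of the lncRNA members lie within or across another gene. In RefSeq, 16 of the 22 (72.7%) overlapped the bounds of another gene, beside 64.1% of all 368 lncRNA genes at 5 CPM or more in foragers, and 18 of the 40 protein-coding members (45.0%) did, beside 36.5% of protein-coding genes. The bounds are the start and end of the whole gene, so an overlap need not fall in an exon. The table gives no strand and the counting is not described in the sources used here. How far overlapping genes share reads is therefore not known. Of the 12 protein-coding genes outside the members that overlap a lncRNA member, none passed all steps. That count was all but fixed in advance and says little. A LOC gene that reached the floor and passed would itself be a member, unless listed in a splice table. Only 0.554% of protein-coding LOC genes at 5 CPM or more in foragers passed in any case. By any amount, 4 of the 12 were higher at each step, and 8 were lower in nurses than in newly emerged workers. Their median steps were -0.20 in nurses over newly emerged workers, 0.14 in foragers over nurses and 0.13 in defenders over nurses. Over all protein-coding LOC genes at that floor the medians were -0.05, 0.02 and 0.01. LOC102656586, for one, averaged 43.5 ± 9.35 CPM in defenders, 37.6 ± 4.38 in foragers, 23.3 ± 1.37 in nurses and 14.2 ± 2.80 in newly emerged workers (SD, n = 3 each), while LOC411664, which overlaps it, averaged 120.4 CPM in defenders, 104.4 in foragers, 132.9 in nurses and 270.4 in newly emerged workers. LOC100578667 and LOC412917 ran apart in the same way, with steps of 1.64 and -0.79 in nurses over newly emerged workers. LOC102656472 and LOC413596 ran together, with steps of 1.49 and 0.54 in nurses over newly emerged workers, 1.34 and 0.51 in foragers over nurses, and 1.21 and 0.41 in defenders over nurses. LOC412917, LOC413596 and LOC411664 are no members, and these pairs were picked after their values were seen.

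Members lay on all 16 linkage groups, from 1 to 9 on each, and 1 on an unplaced scaffold. In 7 cases a member had another within 5 places in the RefSeq gene order. The same count was not made for other LOC genes, so it does not show whether members cluster. LOC410627 and LOC410626 were next to each other on linkage group 15. LOC410626 was at 48.0, 30.1 and 36.5 CPM in defender libraries 1 to 3, 62.2, 55.6 and 39.9 CPM in forager libraries, 19.0, 14.9 and 18.0 CPM in nurse libraries and 5.09, 5.44 and 4.97 CPM in newly emerged libraries. LOC410627 was at 5.96, 5.66 and 5.55 CPM in defender libraries 1 to 3, 8.27, 8.16 and 7.02 CPM in forager libraries, 3.87, 3.09 and 3.81 CPM in nurse libraries and 1.14, 1.09 and 0.920 CPM in newly emerged libraries. Both stepped up without overlap at each step, and each had higher means in foragers than in defenders. LOC102656717 and LOC102656690, the overlapping lncRNA genes, were neighbours on linkage group 11. The other pairs had 1 to 4 genes between them: LOC107966049 and LOC410728, LOC724642 and LOC552110, LOC409709 and LOC412986, and the lncRNA pairs LOC102655794 with LOC100578589 and LOC100578667 with LOC102654810. LOC107966049 and LOC410728 both overlap LOC100578300, which lies between them and averaged 84.5 CPM in defenders, 95.2 in foragers, 81.9 in nurses and 90.1 in newly emerged workers.

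The members differed in how their difference was split over the steps. The first step, nurses over newly emerged workers, held 37.5% to 82.5% of the whole log2 difference between foragers and newly emerged workers (median 59.1%), and it was the larger of the forager path's steps in 50 of 62 genes. The rule asked for at least 0.7 in the first step and only 0.5 in the next. It thereby favours a larger first step, so the median share and this count are no finding about the genes. The share was highest in LOC102656717 (82.5%), LOC551044 (81.7%) and LOC724114 (79.9%). It was lowest in LOC102656014 (37.5%), LOC408807 (38.4%) and LOC727593 (39.3%), where the step over nurses was the larger one. LOC727593 was at 133, 117 and 105 CPM in defender libraries 1 to 3, 166, 150.2 and 145 CPM in forager libraries, 64.4, 54.6 and 78.1 CPM in nurse libraries and 40.3, 37.5 and 33.8 CPM in newly emerged libraries, with no overlap between any of the 4 groups. LOC102656014, a lncRNA gene, was at 7.85, 5.34 and 3.31 CPM in defender libraries 1 to 3, 8.61, 4.30 and 4.39 CPM in forager libraries, 1.49, 1.49 and 1.50 CPM in nurse libraries and 0.612, 0.495 and 0.487 CPM in newly emerged libraries, with library 1 high in both outside groups.

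The thresholds are cuts through a continuous range. Just inside the first step were LOC552110 and LOC102656586 (both 0.71), and just outside it LOC413168 (0.66) and LOC412630 (0.64). LOC102655167 (0.51) and LOC410087 (0.54) lay just inside the step of foragers over nurses, and LOC100578866 (0.46) and LOC409360 (0.44) just outside. For defenders over nurses, LOC412986 and LOC726803 (both 0.53) were inside and LOC113218536 (0.50, short of the threshold before rounding) and LOC102654968 (0.49) outside. At the floor, LOC100578082 and LOC102655275 had 5.47 and 5.62 CPM in foragers, and LOC107963976 and LOC102655605 had 4.82 and 4.19. A further 57 LOC genes missed only the first step, 27 only the forager step, 36 only the defender step and 19 only the floor. LOC413168 overlaps the member LOC409801. LOC409801 averaged 79.6 ± 22.0 CPM in defenders, 114 ± 16.6 in foragers, 60.0 ± 38.4 in nurses and 22.3 ± 18.8 in newly emerged workers (SD, n = 3 each), with newly emerged library 2 above nurse library 2.

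The rule did not set which of them is higher, although it holds both above nurses and keeps out genes low in either. Mean levels in defenders were nearer to those in foragers than to those in nurses in 61 of 62 members, which the rule favours. In edgeR's quasi-likelihood test over all 12 libraries with Benjamini-Hochberg adjustment, 0 of 62 members were called at an adjusted p under 0.05, and 0.0% of the 11271 genes tested. At an unadjusted p under 0.05 there were 5 members (8.06%) and 24.0% of all tested genes. DESeq2 called 1 member, LOC410627, lower in defenders (log2 fold change -0.46, adjusted p = 0.00891, with adjusted p up to 0.207 over the settings run), and 11.6% of all genes, 4.44% lower in defenders. With the 6 defender and forager libraries alone, edgeR called LOC408807 and LOC411983, both lower in defenders, and 7.83% of 11181 genes, 1.48% lower in defenders. Without forager library 2 it called 0 members and 0.00885% of genes. The median log2 fold change of defenders over foragers was -0.07 over the 62 members and -0.02 over all tested genes. The fitted fold change was below 0 in 41 members and above 0 in 21. By group means of log2 CPM, defenders were below foragers in 40 of 62 members, and in 52.0% of all tested genes. All 3 forager libraries lay above all 3 defender libraries in 6 members (background 14.9%), and the reverse held in 0 members (background 16.9%).

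The counts of members lower and higher in defenders than in foragers differed between lncRNA and protein-coding members, which was not tested. Among lncRNA members 11 had lower and 11 higher group means in defenders than in foragers, with a median difference of -0.01 on the log2 CPM scale. Among protein-coding members 29 were lower and 11 higher in defenders, with a median of -0.13. The median SE per gene in edgeR was 0.20 for lncRNA and 0.26 for protein-coding members. It belongs to the fold change of a single gene and does not measure the spread of these medians. Defender library 1 was the lowest of its group for 18 of 22 lncRNA and 17 of 40 protein-coding members. Over all LOC genes at 5 CPM or more in foragers the order of the biotypes was the opposite, with defenders below foragers in 63.6% of lncRNA and 48.9% of protein-coding genes. That floor is set in foragers and so favours genes that are high there. LncRNA genes lie nearer to it (median 11.6 against 36.7 CPM), and its part in these shares was not tested. All 6 genes whose forager libraries lay above all defender libraries were protein-coding. These are 6 of 40 protein-coding members, near the share of all tested genes (14.9%). Of the lower members, LOC410627 had the smallest p (log2 fold change -0.45, SE 0.13, adjusted p = 0.0747 in edgeR), at 5.96, 5.66 and 5.55 CPM in defenders and 8.27, 8.16 and 7.02 CPM in foragers, with no overlap. LOC727593, whose forager libraries also lay above all its defender libraries, came next (log2 fold change -0.37, SE 0.13, edgeR adjusted p = 0.118). LOC410626, the neighbour of LOC410627, had an edgeR adjusted p of 0.161 (log2 fold change -0.46, SE 0.18). Of the higher members, LOC102654810 had a log2 fold change of 0.93 (SE 0.43, edgeR adjusted p = 0.210), LOC102656717 one of 0.60 (SE 0.31, edgeR adjusted p = 0.260) and LOC102656586 one of 0.21 (SE 0.16, edgeR adjusted p = 0.460). All 3 are lncRNA genes, and in each the defender and forager libraries overlapped. Single libraries decided these values: the log2 fold change was 0.46 for LOC102654810 and 0.07 for LOC102656586 without defender library 2 (0.12 for LOC102656586 without forager library 2, 0.35 without defender library 1 and 0.11 with upper-quartile factors), and 0.28 for LOC102656717 without defender library 3.

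**Figure D4:**
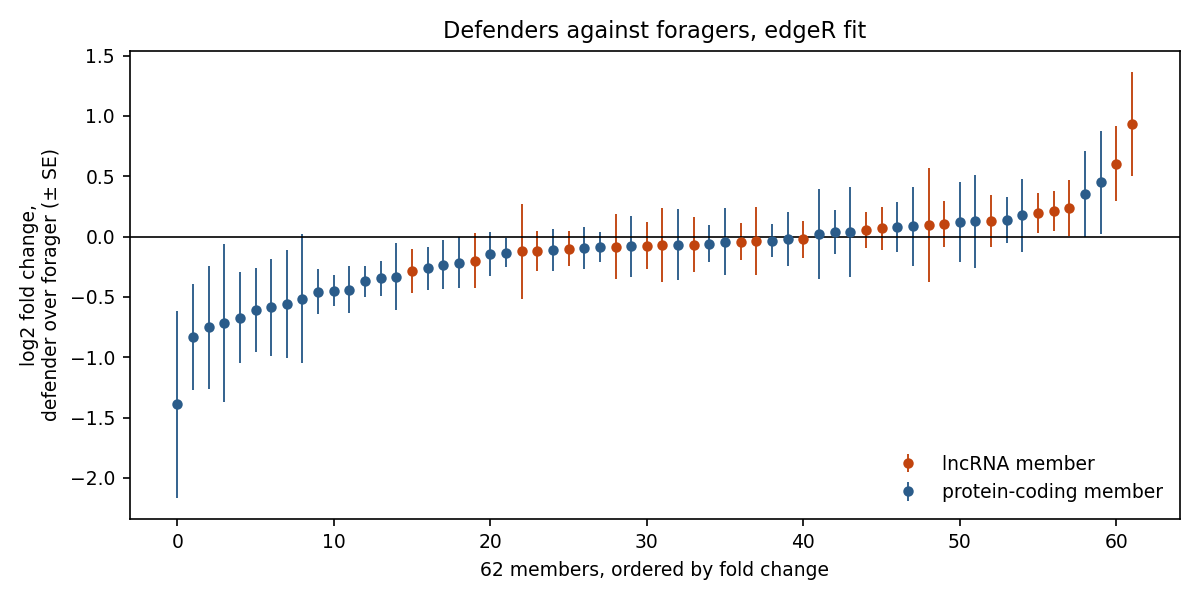
Log2 fold change of defenders over foragers for the 62 members, ordered by size, with bars of 1 SE from the edgeR fit; lncRNA genes in orange and protein-coding genes in blue. The low end, down to LOC408807 at -1.39, is protein-coding, and the high end is LOC102654810 at 0.93; none was called at an adjusted p under 0.05.

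Same-numbered defender and forager libraries shared a pattern. The deviation of a library from its group mean correlated between defender and forager libraries of the same number at 0.46, 0.20 and 0.25 across the 11271 tested genes, and at 0.76, 0.44 and 0.77 across the 62 members (numbers 1, 2 and 3; the points share library and depth, and genes are not independent replicates). Libraries of different number were not compared, so a pairing by number is not shown, and the labels do not say what it stands for. Nurse libraries differed: over the members they correlated at -0.64, 0.26 and -0.43 with same-numbered defender libraries. With same-numbered forager libraries the values were -0.41, 0.28 and -0.38 (numbers 1, 2 and 3). With the number as a block and the defender and forager libraries alone, a fit added after this was seen, edgeR called 5 members, all lower in defenders (8.06% of members). That fit has 2 residual degrees of freedom. As the pattern itself prompted the fit, its calls are no independent support. Of the 11181 genes tested 6.64% were called, 597 higher and 145 lower in defenders, so that 1.30% were called lower. The 5 members were LOC408807 (log2 fold change -1.39, SE 0.18, adjusted p = 0.0163), LOC552832 (log2 fold change -0.94, SE 0.17, adjusted p = 0.0270), LOC411188 (log2 fold change -0.82, SE 0.13, adjusted p = 0.0223), LOC410920 (log2 fold change -0.62, SE 0.11, adjusted p = 0.0266) and LOC726803 (log2 fold change -0.62, SE 0.10, adjusted p = 0.0212). In the planned fit with the block over all 12 libraries, 0 members and 5.92% of all genes were called. LOC552832 was at 11.9, 5.69 and 3.46 CPM in defender libraries 1 to 3 and 16.8, 12.6 and 8.03 CPM in forager libraries, so that each defender library lay below the forager library of its number while the groups overlapped. LOC411188 showed the same, at 91.5, 32.0 and 25.4 CPM in defenders and 130.4, 69.2 and 45.8 CPM in foragers, and so did LOC410920, at 19.0, 9.62 and 5.92 CPM in defenders and 26.4, 16.0 and 9.45 CPM in foragers. LOC726803 did too, at 89.1, 57.5 and 49.5 CPM in defenders and 127, 99.5 and 73.6 CPM in foragers. Over all settings run, the adjusted p spanned 0.0111 to 0.456 for LOC408807, 0.0270 to 0.558 for LOC552832, 0.0223 to 0.889 for LOC411188, 0.0266 to 0.856 for LOC410920 and 0.0212 to 0.571 for LOC726803. Without the block, in the fit over all groups, leaving out forager library 1 gave -0.21 for LOC411188, -0.15 for LOC410920, -0.55 for LOC552832 and -0.40 for LOC726803, and leaving out defender library 1 gave -1.54, -1.19, -1.48 and -0.93 for the same genes. Without defender library 3 the values were -0.42 for LOC411188, -0.29 for LOC410920 and -0.52 for LOC552832.

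Along this pattern 37 members were either highest or lowest in library 1 of both outside groups, and the other 25 were neither. Library 1 was the highest of its group in defenders and in foragers for 16 members (25.8%), beside 11.1% of all tested genes, and the lowest in both for 21 members (33.9%), beside 16.1%. Of the 16 high genes 2 were lncRNA genes, and of the 21 low genes 11 were. In the 16 high genes defender library 1 was 1.06 to 3.19 times the mean of the other defender libraries (median 1.53), and forager library 1 1.06 to 4.00 times the mean of the other forager libraries (median 1.66). In the 21 low genes the medians were 0.684 and 0.766 times. LOC410013 was one of the high genes, at 116, 55.1 and 54.8 CPM in defender libraries 1 to 3, 116, 43.7 and 63.0 CPM in forager libraries, 23.9, 24.4 and 44.2 CPM in nurse libraries and 3.56, 3.90 and 3.65 CPM in newly emerged libraries; the gene was picked for this pattern after its values were seen. Libraries of the other groups, which had no part in that split, differed along it too. Nurse library 3 was above the nurse mean in 15 of the 16 high genes and in 4 of the 21 low genes, with median deviations of 0.25 and -0.21 on the log2 scale, and nurse library 1 was above it in 3 of 16 and 19 of 21. Over all tested genes split in the same way, nurse library 3 was above its group mean in 810 of 1248 high genes and 564 of 1819 low genes. The head gland markers summed to 2764, 925 and 644 CPM in nurse libraries 1 to 3. In forager libraries they summed to 804, 939 and 778 CPM and in defender libraries to 669.8, 844 and 685 CPM. Other lists varied among nurse libraries 1 to 3 too, with fat body sums of 42.0, 222 and 119 CPM and photoreceptor sums of 46.6, 14.1 and 5.81 CPM. What sets these libraries apart is not given in the labels, and its part in the steps was not tested.

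**Figure D5:**
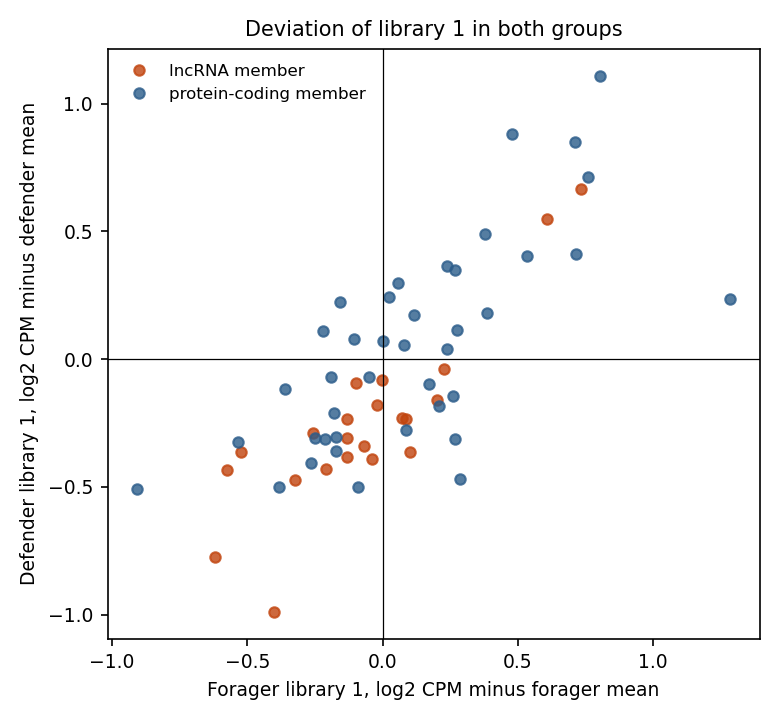
Deviation of defender library 1 from the defender mean (vertical) against that of forager library 1 from the forager mean (horizontal), in log2(CPM + 0.5), for the 62 members; lncRNA genes in orange and protein-coding genes in blue. Points run from low in both libraries to high in both (r = 0.76 over 62 genes), and 2 of the 16 genes highest in both library 1s are lncRNA.

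A few genes that do have a symbol met the same floor and steps and are listed here beside the LOC genes. There were 9 of 286 symbol-bearing genes at 5 CPM or more in foragers (3.15%), beside 0.816% of the LOC genes. They were the alpha-glucosidase genes Hbg3 and AGLU2, the dopamine transporter gene Dat, the tyramine receptor gene TyrR, the odorant binding protein gene Obp19, the royal jelly protein genes Mrjp8 and Mrjp9, Y-f of the yellow family, and Apid1. Dat was at 50.9, 42.5 and 38.1 CPM in defender libraries 1 to 3, 51.6, 54.5 and 46.8 CPM in forager libraries, 24.9, 24.2 and 29.7 CPM in nurse libraries and 8.11, 11.3 and 7.17 CPM in newly emerged libraries, and all 4 groups but defenders and foragers were apart. TyrR was at 43.3, 94.0 and 117 CPM in defender libraries 1 to 3, 42.5, 80.6 and 102 CPM in forager libraries, 61.7, 28.8 and 50.4 CPM in nurse libraries and 19.4, 20.3 and 24.5 CPM in newly emerged libraries. Library 1 was the lowest of its group in defenders and in foragers for TyrR, and within the nurse range. Obp19 averaged 249.8 ± 59.4 CPM in defenders, 285 ± 51.4 in foragers, 155 ± 51.3 in nurses and 23.8 ± 1.64 in newly emerged workers (SD, n = 3 each). Of 288 LOC genes in the splice tables at the same floor, LOC100576895 and LOC726158 met the steps (0.694%).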

How the data were processed

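The 12 libraries are antennal RNA of workers, per the labels. For them the authors deposited 1 table of raw counts per gene, in whole numbers that are not normalized. The 5 splice tables they deposited hold inclusion levels as a fraction, which went unused; only gene names were read from them. The aligner, counter, build and strand setting are not stated in what was available here. The labels' protocol fields describe a chromatin assay on human cells and were set aside. The 209 skipped-exon events with a matched gene all lay inside that gene's bounds in Amel_HAv3.1, but since no file names its build, no coordinates are given. The RefSeq list matched 12167 of 12319 names; it holds no product names or sequences, so the planned classes by product, proteins and promoters could not be run.

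Group and number were read from the titles, the number being the one after the group name; the Rep number that follows differs from it in 2 titles. Counts were fitted with edgeR 4.0.16 (TMM factors, filterByExpr, glmQLFit with robust = TRUE, glmQLFTest, two-sided, R 4.3.3) with 4 group means over 12 libraries, checked on simulated data; DESeq2 1.42.0 was an alternative. SE is the absolute log2 fold change over the square root of F. Deviations from group means correlated over 0.1 in every same-numbered pair of defender and forager (0.46, 0.20 and 0.25), newly emerged and forager (0.32, 0.32 and 0.34) and newly emerged and defender libraries (0.37, 0.26 and 0.18), and not in every pair with nurses (-0.41 to 0.32). Alternatives were other scaling factors, filters, pseudocounts, the block and leaving out each library. Values in CPM use plain library totals of 66708813 to 119703929. Genes named are the 12 highest in foragers, the 10 with the widest span, the 3 smallest p per direction for defenders against foragers, those next to a threshold, neighbours, and the extremes of the first step's share. LOC409801, LOC410013, LOC102656472, LOC410920, LOC552832, the overlapping genes and the genes beyond the LOC set were named after their values were seen. The members and lists were chosen with earlier results of these data known.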

Additional observations from a re-analysis of the deposited data

How the results depend on the processing

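The rule gave 59 to 65 genes when 1 library was left out, and 35 of the 62 were found in all 12 such settings; 51, 52 and 53 of them were found without nurse library 3, 1 or 2. With TMM, size-factor or upper-quartile scaling it gave 62, 61 and 61 genes, 56 of the 62 under all of these, and with all steps set to 1 it gave 16, of which 4 were lncRNA genes. The median step over nurses was 0.81 in defenders with upper-quartile factors, against 0.91; without 1 library it was 0.79 to 0.94 in defenders and 0.93 to 1.02 in foragers, and that of nurses over newly emerged workers was 1.33 to 1.55. For defenders against foragers the members called were 0 except 2 with only those 6 libraries (LOC408807 and LOC411983), 5 with the replicate block in those libraries and 1 with DESeq2, and 0 whichever of the 6 libraries was left out. Over all genes the calls were 876 with only those libraries, 667 and 742 with the replicate block in all 12 and in those 6, 1306 with DESeq2, and 0 to 1 with a library left out (1 without forager library 2). Upper-quartile factors moved the all-gene median of that comparison to -0.12 on the log2 scale, against -0.02, and members below 0 to 49, against 41. Of 12 genes followed by name, none changed direction in any setting run; their leave-one-out log2 fold changes ranged most for LOC411188 (-1.54 to -0.21) and LOC410920 (-1.19 to -0.15).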
